A study of Bos taurus with 12 samples.

Results

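The comparison described here followed transcript abundance from day 3 to day 7 of the estrous cycle in low receptive (LR) bovine endometrium. It compared 6 of the 12 arrays of the series, namely the 3 pools labelled non receptive at day 3 (LR3) and the 3 pools labelled non receptive at day 7 (LR7). All 24,016 non-control probe sets among 24,128 entries were tested. The other 6 arrays entered the fit as well, so that the estimate of the spread came from all 12. All pools came from Simmental heifers, whose endometrium was brushed during the cycle before the transfer of an in vitro-produced blastocyst. LR heifers carried no detectable embryo at the later ultrasound check, and the heifers of the high receptive groups (HR3 and HR7, labelled receptive) did. Each array measured 1 RNA pool of 5 brush samples, so that an LR group of 3 arrays stood for 3 pools. Receptivity was assigned retrospectively from 1 transfer, and whether the same heifers supplied the day 3 and the day 7 pools is not given in the sources used here. A brush collects mainly the luminal lining of the uterus, and values of such mixed tissue cannot tell fewer cells of a type from less RNA per cell.

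In cattle, the days after ovulation are the time in which the corpus luteum forms and blood progesterone climbs, while the estrogen of estrus subsides. Under progesterone, the endometrial epithelium turns from proliferation to secretion and releases lipids, amino acids, sugars and proteins into the uterine lumen, together called histotroph, on which the embryo depends before it attaches. Prostaglandins, oxytocin signaling, remodeling of the matrix and traffic of immune cells in the uterus also follow the cycle.

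The change with the day was broad in LR. In limma, 2,749 probe sets passed at an adjusted p under 0.05, of which 1,498 were higher at day 7 (6.24% of those tested) and 1,251 lower (5.21%), and 6,818 had an unadjusted p under 0.05. A probe set is called expressed here when it lay above the median of its array in all 3 pools of LR3 or all 3 of LR7. Among the 6,239 expressed genes with 1 symbol, 604 rose (9.68%) and 399 fell (6.4%), and the median log2 change over all of them was -0.02. Large changes were more often rises: of the expressed probe sets that passed, 447 rose and 190 fell by more than 1 on the log2 scale, and 35 rose and 3 fell by more than 3. Of the passing probe sets, 683 were not expressed by this rule. These p-values measure the spread between pools.

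**Figure D1:**
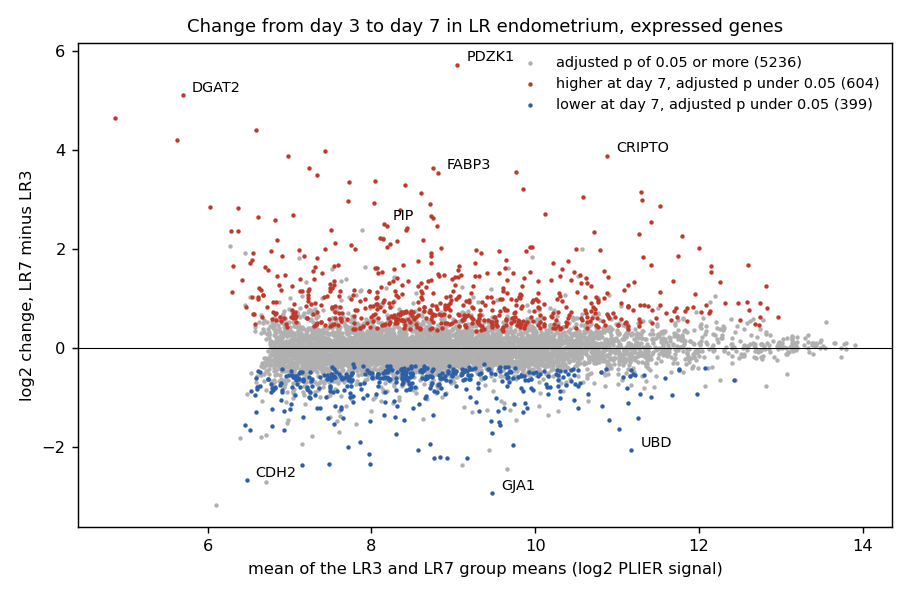
Log2 change from LR3 to LR7 (vertical axis) against the mean log2 PLIER signal of both groups (horizontal axis) for the 6,239 expressed genes; each point is 1 gene, with the 604 that rose in red and the 399 that fell in blue. The rises extend to 5.72 (PDZK1) and the falls to -2.94 (GJA1) among the genes that passed.

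Of 7 controls with probe sets at both transcript ends, dap and EEF1A1 separated the days in LR. Beside this, the LR3 and LR7 signals of 7,279 of the 24,016 probe sets (30.3%) did not overlap. For dap, a transcript spiked in to monitor labelling, the log2 signal at the 5' end minus that at the 3' end was -3.13, -2.66 and -2.86 in the LR3 pools. It was -1.50, -1.47 and -1.88 in the LR7 pools, without overlap. With this difference as a covariate 25 probe sets passed, 13 of them expressed genes. All 1,003 expressed genes that had passed kept their direction, their median change went from 0.72 to 0.63 on the log2 scale, and the median standard error rose from 0.155 to 0.236. In HR the dap values of -2.74, -1.39 and -1.32 at day 3 and -2.30, -1.77 and -1.84 at day 7 overlapped. Of the 2,066 expressed probe sets that passed in LR, 1,298 (62.8%) also passed in HR in the same direction, with the estimate of the spread shared by both tests. Of all 24,016 probe sets, 1,379 were higher (5.74%) and 1,307 lower (5.44%) at day 7 in HR. This count does not test a part of dap in the LR calls. EEF1A1, a transcript of the endometrium itself, had a 5' minus 3' difference of 0.67, 0.82 and 0.24 in LR3 against 1.42, 1.19 and 0.98 in LR7, also without overlap. In HR it overlapped, with 0.38, 0.96 and 1.13 at day 3 and 0.98, 1.04 and 0.94 at day 7. The actin difference was lower at day 7 in LR, with -0.62, -0.10 and 0.55 against -1.53, -1.01 and -0.62, where 1 value was shared. The spiked thr ranged from -4.35 to -3.52 in LR3 and from -3.85 to -2.37 in LR7, and phe, lys and GAPDH overlapped too. The part of EEF1A1 and actin in the gene changes was not tested. With only the 6 LR arrays in the fit 405 probe sets passed, 136 of them representing expressed genes, and with the pool number as a block 1,496. The LR pools scattered more than the HR pools that entered the shared estimate of the spread. The median standard deviation over expressed probe sets was 0.178 in LR3 and 0.16 in LR7, against 0.137 in HR3 and 0.128 in HR7. The count of passing probe sets fell to 1,163 without LR7 replicate 1 and 1,410 without LR3 replicate 1. It was 1,533 without LR7 replicate 2 and 1,791 without LR3 replicate 2. These limits apply to every count that follows, and the counts of each gene list are to be read against the 9.68% of expressed genes that rose and the 6.4% that fell.

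The 12 largest rises ran from 5.72 to 3.48 on the log2 scale. PDZK1, a scaffold that anchors transporters at the apical membrane, had log2 signals of 5.47, 7.32 and 5.79 in the LR3 pools and of 12.31, 12.45 and 10.97 in the LR7 pools. All LR7 pools were far above all LR3 pools, and PDZK1 went from near the array median to among the strongly detected genes. The change was 5.72 (standard error 0.51, 52.6-fold, limma adjusted p = 0.000812). DGAT2, which completes triglyceride synthesis, had 6.13, 2.84 and 0.48 in LR3 against 8.02, 8.94 and 7.79 in LR7. The LR3 pools scattered widely below the array median, so that the fitted rise of 5.10 has a standard error of 1.098 (limma adjusted p = 0.0181). LPL, the lipase that frees fatty acids from lipoproteins, had 4.36, 5.42 and 5.34 in LR3 against 9.05, 9.70 and 7.99 in LR7, again with no overlap (3.87, limma adjusted p = 0.00168). FABP3, an intracellular fatty acid carrier, had 7.11, 7.14 and 6.87 in LR3, a tight group, and 11.06, 9.83 and 10.84 in LR7 (3.54, limma adjusted p = 0.000812).

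The same 12 genes held enzymes of amino acid metabolism, receptors and a metal transporter. PHGDH, the entry enzyme of serine synthesis, was detected at both days, with 7.41, 8.85 and 7.71 in LR3 against 11.51, 12.09 and 11 in LR7 (change 3.54). PRODH, which starts proline degradation, rose by 4.40 from values below the array median. CRIPTO, a co-receptor of the growth factor Nodal, had 9.86, 10.12 and 6.85 in LR3 against 13.12, 13.20 and 12.15 in LR7, so that 1 LR3 pool lay apart and the change of 3.88 had a standard error of 0.72. FCGR2B, an inhibitory receptor for IgG, had 5.15, 5.50 and 6.14 in LR3 against 8.92, 9.25 and 9.07 in LR7. Its change of 3.48 had the lowest p of these 12 rises (limma adjusted p = 0.000223), and it was the 1 gene of the 24 largest changes that also passed with the dap covariate. The others were SCARA5, a receptor that takes up ferritin (3.97), SLC39A8, a zinc transporter (3.64), GAT (4.20) and BSP3 (4.64), a member of the binder of sperm family. In DGAT2, LPL, PRODH, GAT, BSP3 and FCGR2B all 3 LR3 pools lay below the array median, where signals are least precise.

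The 12 largest falls, from -2.94 to -2.07, were smaller than the 12 largest rises. GJA1, the gap junction protein connexin 43, had 11.50, 11.23 and 10.09 in LR3 against 7.52, 8.33 and 8.15 in LR7. The groups were far apart and the change was -2.94 (standard error 0.40, 7.67-fold, limma adjusted p = 0.00336). CDH2, N-cadherin, had 8.25, 8.17 and 7.02 in LR3 against 5.45, 4.80 and 5.16 in LR7, where all pools were below the array median (-2.68, limma adjusted p = 0.00372). JAG1, a ligand of Notch receptors, had 10.03, 9.72 and 9.06 in LR3 against 7.33, 7.78 and 7.48 in LR7 (-2.07, limma adjusted p = 0.00178). CXCL10, a chemokine induced by interferon that attracts T cells, had 8.50, 9.21 and 9.76 in LR3 against 6.80, 6.16 and 7.47 in LR7, and again no LR7 pool reached an LR3 pool (-2.35, limma adjusted p = 0.0047). KLF11, a transcription factor of the Kruppel-like family, was the most even of these in LR3, with 9.96, 9.86 and 9.81, and had 7.02, 7.89 and 8.05 in LR7. It fell by 2.22 on the log2 scale, and both of its other probe sets passed in the same direction. The remaining falls were those of the surface peptidase DPP4 (-2.36), the kallikrein KLK10 (-2.35), TSPAN2 of the tetraspanin family (-2.23), the matrix proteoglycan lumican (LUM, -2.22), CDCA7 (-2.20), DKK3 of the Dickkopf family (-2.14) and the ubiquitin-like protein UBD (-2.07). With the pool number as a block DPP4, LUM and DKK3 did not pass, while the other 21 of the 24 genes did.

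**Figure D2:**
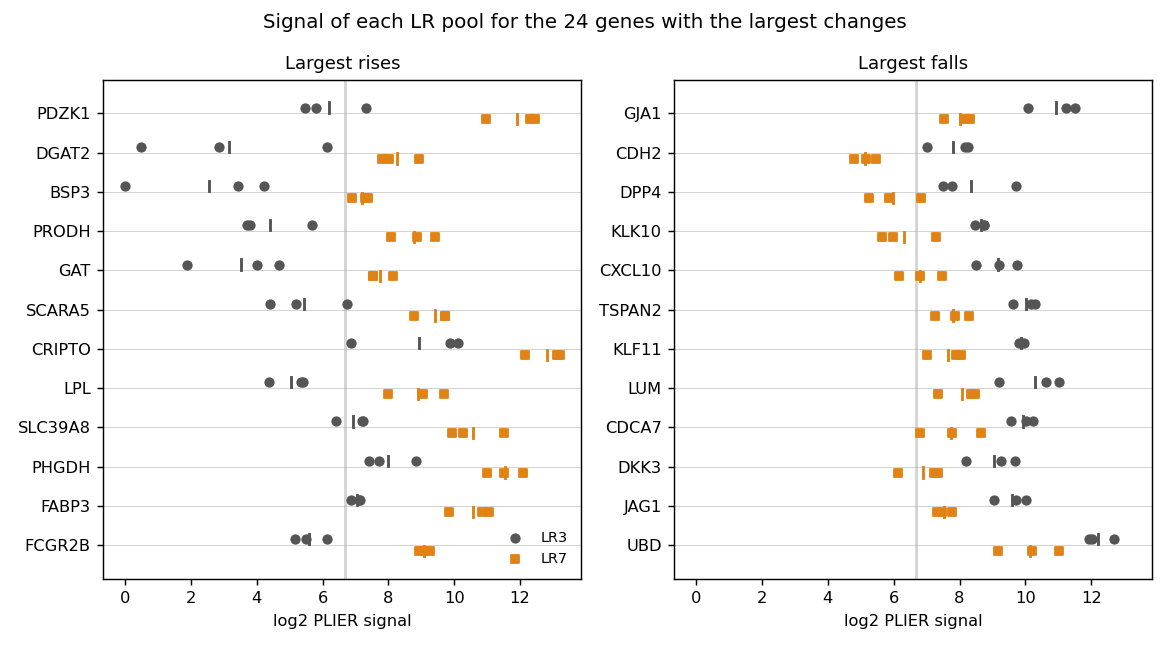
Log2 PLIER signal (horizontal axis) of each LR3 pool (grey circles) and LR7 pool (orange squares) for the 12 largest rises (left) and the 12 largest falls (right); short bars are group means and the grey band marks the array medians of the LR pools. The groups do not overlap for any of the 24 genes, which was a condition of their choice, and several rises start below the band.

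Several genes of prostaglandin metabolism rose, and few steroid receptor genes passed. Of 8 expressed genes of prostaglandin synthesis, transport and oxytocin signaling 3 rose and none fell (median log2 change 1.27). PTGIS, prostacyclin synthase, had 5.70, 7.09 and 5.90 in LR3 against 9.04, 9.42 and 9.12 in LR7 (2.96, limma adjusted p = 0.00178). AKR1B1, an aldo-keto reductase that makes prostaglandin F in bovine endometrium, had 10.34, 10.62 and 9.47 in LR3 against 12.65, 13.61 and 11.78 in LR7 (2.54, limma adjusted p = 0.00814). HPGD, which inactivates prostaglandins, had 7.68, 8.53 and 7.10 in LR3 against 9.35, 9.89 and 9.84 in LR7. The LR7 pools of all 3 genes lay above the LR3 pools, and HPGD changed by 1.92 (standard error 0.40, limma adjusted p = 0.0157). PTGS2, the inducible cyclooxygenase, had 8.36, 5.79 and 5.94 in LR3 against 10.38, 9.31 and 7.56 in LR7. One LR3 pool lay above 1 LR7 pool, and PTGS2 did not pass (2.39, standard error 0.83, limma adjusted p = 0.0927), though it did with the pool number as a block. The oxytocin receptor OXTR, with 11.11, 10.59 and 10.83 in LR3 against 10.45, 8.43 and 9.56 in LR7, did not pass either (-1.36, limma adjusted p = 0.0889).

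Of 10 expressed steroid receptors, coregulators and steroid enzymes 1 rose and 1 fell (median 0.07). HSD17B4, a peroxisomal enzyme that also oxidizes estradiol, rose by 1.13, though its other probe set passed in the opposite direction. NR3C1, the glucocorticoid receptor, fell by 0.72 on the log2 scale. The membrane-associated PGRMC1 changed by 0.07. ESR2, the estrogen receptor beta, was not among the expressed genes but passed as higher (1.29).

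Among 22 expressed genes for secreted proteins of the histotroph 6 rose and none fell (median 0.29). PIP, the prolactin-induced protein, had 7.05, 7.06 and 6.58 in LR3 against 9.22, 9.85 and 9.13 in LR7. The pools within each group were close together and far from those of the other group (2.50, standard error 0.24, limma adjusted p = 0.000936). SPP1, or osteopontin, a ligand of integrins, had 10.22, 9.78 and 10.18 in LR3 against 12.16, 11.85 and 10.82 in LR7 (1.55, limma adjusted p = 0.0173). The matricellular growth factor CCN2 rose by 1.84. Lactotransferrin (LTF) and clusterin (CLU), which were among the strongest signals at both days, changed by 0.06 and -0.18 and did not pass.

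The study also measured HPGD, PTGS2, PIP and KRT5, a basal keratin described with the cell type markers, by qRT-PCR. Their primers, written in lower case from 5' to 3', are shown because they identify the stretch of each transcript that a second method targeted. No qRT-PCR value is used here.
HPGD forward: aaagtacctcattctgcctg
HPGD reverse: cagttcctcatattcaatccac
PTGS2 forward: gtgtgaaagggaggaaagag
PTGS2 reverse: gcaaacatcagatttgtgcc
PIP forward: ggtttgcaaatcccagaaga
PIP reverse: agatctgagggaatgcatgg
KRT5 forward: atcaacaacctcaggagacag
KRT5 reverse: gcatccacatccttcttcag

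Most transcripts of energy metabolism were higher at day 7 by small amounts, and few of them passed. Of 56 expressed nuclear genes of oxidative phosphorylation, 51 were higher at day 7, 7 rose (12.5%) and none fell, and the median log2 change was 0.31 against -0.02 over all expressed genes. Examples were NDUFB6 of complex I, with 10.16, 10.34 and 10.44 in LR3 against 11.09, 11.19 and 10.90 in LR7 (0.75), COX7A2 of complex IV (0.60), UQCRFS1 of complex III (0.57) and ATP5MC1 of ATP synthase (0.72). The median deviation of the list ranged from -0.223 to 0.012 in the LR3 pools and from 0.11 to 0.226 in the LR7 pools, so that LR3 replicate 2 stood closest to LR7. COX4I1 (0.07) and ATP5F1A (0.45) were the strongest signals that did not pass. The count of rises was 3 with the pool number as a block and 23 with an intensity trend in the variance. It was 1 without LR3 replicate 1, LR7 replicate 1 or LR7 replicate 2, 2 without LR3 replicate 3 and 13 without LR3 replicate 2, and the median was 0.15 with the dap covariate. Of 29 genes of glycolysis and the citric acid cycle, 28 were higher and 7 rose (24.1%, median 0.41), with 2 rises without LR7 replicate 1 and 4 without LR3 replicate 3 or LR7 replicate 2. OGDH of the citric acid cycle had 10.18, 10.45 and 9.92 in LR3 against 11.74, 11.93 and 11.14 in LR7 (1.42, limma adjusted p = 0.00381). IDH2 (0.85), the glycolytic enzymes ALDOA (0.73) and GPI (0.71) also rose, whereas LDHA (0.44) and MDH2 (0.35) did not pass.

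Lipid genes rose more often than they fell. Of 34 expressed genes of fatty acid and triglyceride metabolism 10 rose (29.4%) and 1 fell (median 0.22; 5 rose with the pool number as a block). The rises numbered 5 without LR3 replicate 1, 4 without LR7 replicate 1 and 6 without LR7 replicate 2. The rises were led by DGAT2, LPL and FABP3. FADS2, the delta-6 desaturase of polyunsaturated fatty acids, fell, with 11.03, 10.94 and 10.15 in LR3 against 9.12, 9.45 and 7.68 in LR7 (-1.96, limma adjusted p = 0.0192). Fatty acid synthase (FASN) changed by 0.04 and ACSL5 by -0.22, neither of which passed. None of 22 genes of cholesterol synthesis and uptake passed in limma (median 0.25, 18 of them higher; 2 rose with the pool number as a block and 3 without LR7 replicate 3). Of 12 glucose and amino acid transporters, 2 rose. SLC5A1, the sodium-dependent glucose transporter, had 7.68, 6.57 and 5.67 in LR3 against 8.11, 8.35 and 8 in LR7 (1.51, limma adjusted p = 0.0403), and SLC3A2, the heavy chain of amino acid exchangers, rose by 0.85. Neither passed with the pool number as a block, or without any pool other than LR3 replicate 1. SLC2A1, the glucose transporter GLUT1 (0.39), and SLC38A2 (0.02) did not pass.

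Many genes of the secretory pathway rose, while no ribosomal protein or proteasome gene passed. Of 55 expressed genes for protein translocation, folding and transport, 50 were higher and 16 rose, a share of 29.1% against 9.68% of all expressed genes, and none fell (median 0.34; 7 rose with the pool number as a block). The rises numbered 8 without LR3 replicate 1, 6 without LR7 replicate 1 and 10 without LR7 replicate 2. The chaperone calreticulin (CALR) had 9.39, 9.98 and 9.38 in LR3 against 11.46, 11.06 and 10.58 in LR7 (1.45, limma adjusted p = 0.0273). DNAJB9 (1.24), SDF2L1 (0.92) and calnexin (CANX, 0.90), which assist folding in the endoplasmic reticulum, rose as well. The more abundant HSPA5 (0.28) and SSR4 (0.06) did not pass, though 1 further probe set of HSPA5 passed as higher. With the block, CALR and SDF2L1 did not pass. None of 55 cytosolic ribosomal proteins passed in limma (median 0.03), and RPL7, with 13.87, 13.73 and 13.81 in LR3 against 13.79, 13.74 and 13.81 in LR7, had the strongest signal among them. None of 32 proteasome subunits passed (median 0.03). Of 56 splicing factors and RNA helicases 2 fell, HNRNPA0 (-0.52) and LSM4 (-0.47), a share of 3.57% against 6.4% of all expressed genes. The falls numbered 0 with the block, 7 with an intensity trend, 1 without LR3 replicate 2, LR7 replicate 1 or LR7 replicate 2 and 4 without LR7 replicate 3. DDX5 (0.14) and DDX17 (-0.09) did not pass.

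**Figure D3:**
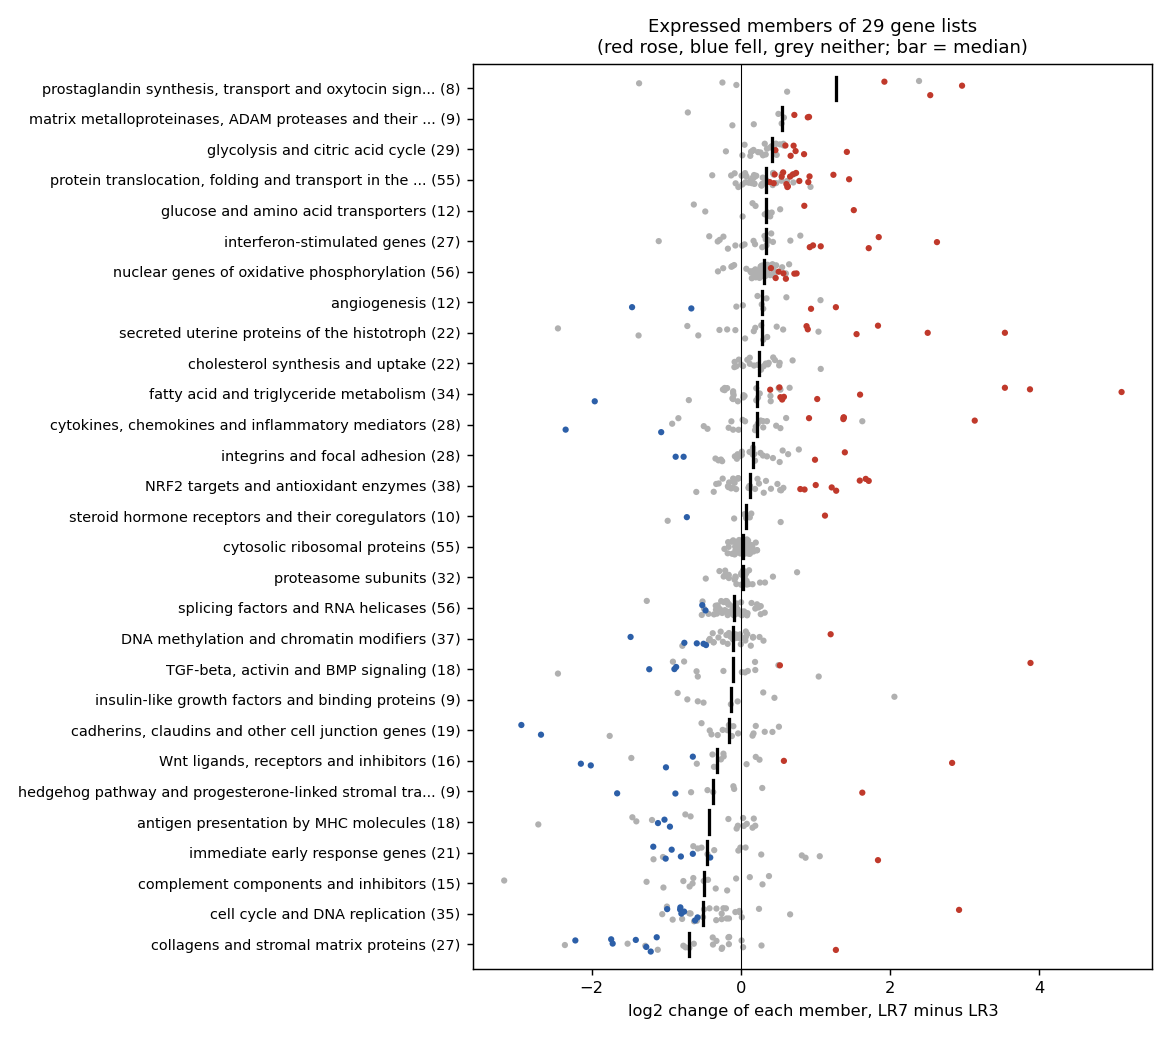
Log2 change from LR3 to LR7 (horizontal axis) of each expressed member of 29 gene lists, ordered by their median (black bars), with the number of expressed members in brackets; red points rose, blue points fell and grey points did not pass. The medians run from -0.69 for collagens and stromal matrix proteins to 1.27 for the 8 prostaglandin genes.

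Some replication genes fell, while 1 mitotic cyclin rose. Of 35 expressed cell cycle genes, 31 were lower, 8 fell (22.9%) and 1 rose (median -0.51). The checkpoint kinase CHEK1 had 7.71, 8.32 and 7.78 in LR3 against 7.47, 6.66 and 6.72 in LR7 (-0.99, limma adjusted p = 0.04). CDT1, which licenses replication origins (-0.81), and RRM1 of ribonucleotide reductase (-0.81) also fell, and PCNA (-0.51) and cyclin D3 (CCND3, 0.24) did not pass. Cyclin B1 (CCNB1) went the other way, with 6.38, 7.70 and 5.64 in LR3 against 9.86, 9.73 and 8.90 in LR7 (2.92, limma adjusted p = 0.006). With the pool number as a block 2 of these genes fell, and CHEK1 and CDT1 were not among them. The falls numbered 5 without LR3 replicate 1 or LR7 replicate 3, 3 without LR3 replicate 2, 4 without LR7 replicate 1 and 2 without LR7 replicate 2. Among 37 genes that methylate DNA or modify chromatin, 5 were lower and 1 higher past the threshold (13.5% and 2.7%, median -0.11; 1 fell with the block). The falls numbered 2 without LR3 replicate 1, LR3 replicate 2 or LR7 replicate 1 and 3 without any other pool. UHRF1, which guides maintenance methylation (-1.48), the deacetylase HDAC5 (-0.76) and the remodeler CHD4 (-0.59) fell, and the lysine methyltransferase SETD7 rose by 1.20. Of 21 immediate early genes 6 fell (28.6%) and 1 rose (median -0.45), with 3 falls without LR3 replicate 1, LR7 replicate 1 or LR7 replicate 2. JUN had 11.57, 11.51 and 11.14 in LR3 against 10.16, 9.92 and 10.62 in LR7 (-1.17), and the stress gene GADD45A (-1.01) and the transcription factor KLF10 (-0.93) fell with it. JUNB (-0.36) and the phosphatase DUSP1 (0.27) did not pass, and the riser was CCN2.

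Signaling pathways changed in single members in both directions. Of 16 expressed Wnt genes 4 fell (25%) and 2 rose (12.5%; median -0.31; 2 fell with the pool number as a block). The falls numbered 2 without LR3 replicate 2 or LR7 replicate 1, and the rises 1 without LR3 replicate 1, LR3 replicate 3, LR7 replicate 1 or LR7 replicate 2. The receptor FZD10 had 8.97, 8.94 and 8.25 in LR3 against 7.07, 6.37 and 6.69 in LR7 (-2.01, limma adjusted p = 0.00316), and WLS, which carries Wnt proteins to the cell surface, had 12.14, 12.03 and 11.57 against 10.90, 11.11 and 10.72 (-1.0). The ligand WNT11 had 4.81, 6.11 and 3.95 in LR3, below the array median, and 7.84, 8.71 and 6.81 in LR7 (2.83, limma adjusted p = 0.013). Beta-catenin (CTNNB1) changed by 0.20 and the secreted inhibitor SFRP2 by 0.25, and neither passed. Among 18 genes of TGF-beta, activin and BMP signaling 2 rose (11.1%) and 3 fell (16.7%; median -0.11; 1 and 1 with the block). There was 1 rise without any pool other than LR3 replicate 3 or LR7 replicate 3. There was 1 fall without LR3 replicate 1, LR7 replicate 1 or LR7 replicate 2, and 0 falls without LR3 replicate 2 or LR7 replicate 3. Beside CRIPTO, which rose, the ligand BMP7 (-1.23), the activin receptor ACVR2B (-0.89) and the matrix protein TGFBI (-0.87) fell. Among 9 genes of the hedgehog pathway and stromal transcription factors 1 rose and 2 fell (11.1% and 22.2%, median -0.37; 1 fell with the block or without LR7 replicate 1). Smoothened (SMO), the signal transducer of hedgehog, had 7.29, 7.36 and 7.39 in LR3 against 5.34, 5.36 and 6.37 in LR7 (-1.66), DISP1, which releases hedgehog ligands, rose by 1.63, and the homeobox gene MEIS1 fell by 0.88 on the log2 scale. None of 9 insulin-like growth factor genes passed in limma (median -0.13), and IGF2R (0.30) and IGFBP6 (-0.58) were the strongest signals. The other probe set of IGF2R, which does not represent the gene here, passed as higher.

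Of 12 expressed genes of angiogenesis 2 rose and 2 fell (16.7% each, against 9.68% and 6.4% of all expressed genes; median 0.29; 1 and 1 with the pool number as a block). The rises numbered 1 without any pool other than LR7 replicate 3, and the falls 1 without LR3 replicate 1, LR7 replicate 1 or LR7 replicate 2. FGFR2, a receptor of fibroblast growth factors, had 11.70, 11.80 and 11.39 in LR3 against 10.19, 10.17 and 10.16 in LR7. The LR7 pools were nearly identical and clearly below LR3 (-1.46, standard error 0.12, limma adjusted p = 0.000473). VEGFA, the vascular growth factor, fell by 0.66 on the log2 scale, while the matrix protein THBS1 (1.27) and the vasoconstrictor endothelin 1 (EDN1, 0.94) rose. FGFR2, FCGR2B and PIP were the 3 of 116 named genes that passed here and in all 18 alternative fits.

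Several matrix genes fell, while 2 proteases, 1 protease inhibitor and 1 integrin rose. Of 27 expressed collagens and matrix proteins, 23 were lower, 7 fell (25.9%, against 6.4% of all expressed genes) and 1 rose (median -0.69; 1 fell with the pool number as a block). The falls numbered 0 without LR7 replicate 1, 2 without LR3 replicate 2 or LR7 replicate 2 and 4 without LR3 replicate 3. Beside LUM, fibrillin (FBN1) had 10.06, 10.14 and 10.78 in LR3 against 8.42, 8.92 and 8.49 in LR7 (-1.72, limma adjusted p = 0.014), and COL15A1 (-1.74) and versican (VCAN, -1.41) fell. The strongest signals did not pass, namely fibronectin (FN1, -0.77) and COL3A1 (-0.17), whose LR7 pools ranged from 10.17 to 12.10. The riser was THBS1. Without LR3 replicate 2 the median of the list was -0.39. Of 9 metalloproteinases, ADAM proteases and inhibitors 3 rose and none fell (median 0.55), with 0 rises without LR7 replicate 1 and 1 without LR3 replicate 3 or LR7 replicate 2. They were ADAM10, which sheds membrane proteins (0.91), the inhibitor TIMP2 (0.90) and ADAMTS1 (0.72), while ADAM9 (-0.11) and the plasminogen activator PLAT (-0.71) did not pass. Of 28 genes of integrins and focal adhesion 2 rose and 2 fell (7.14% each, against 9.68% and 6.4% of all expressed genes; median 0.16), with 1 fall without LR3 replicate 1, LR3 replicate 2 or LR7 replicate 1. Integrin beta 4 (ITGB4), a part of hemidesmosomes, had 6.64, 6.59 and 6.06 in LR3 against 8.04, 7.78 and 7.65 in LR7 (1.39, limma adjusted p = 0.0032), and the calpain subunit CAPNS1 rose by 0.99. TSPAN6 (-0.87) and TNS1 (-0.77) fell, the latter not with the block, whereas ITGB5 (-0.01) and CD9 (0.19) did not pass. Of 19 cadherins, claudins and other junction genes GJA1 and CDH2 fell and none rose (median -0.16), and E-cadherin (CDH1, -0.42) did not pass.

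Some antioxidant and interferon-stimulated genes rose, chemokines moved in both directions, and 3 MHC class II genes fell. Of 38 genes of the NRF2 and antioxidant response 8 rose (21.1%) and none fell (median 0.12). Thioredoxin reductase (TXNRD1) had 9.02, 9.61 and 9.47 in LR3 against 10.90, 11.61 and 10.73 in LR7 (1.71, limma adjusted p = 0.0032). GCLC of glutathione synthesis (1.67), heme oxygenase (HMOX1, 1.59) and the exporter ABCC1 (1.28) rose too, while both ferritin chains, FTH1 (0.11) and FTL (0.10), did not pass. Of 28 inflammatory mediators 5 rose (17.9%) and 2 fell (7.14%, against 6.4% of all expressed genes), with a median of 0.21 that was 0.09 without LR3 replicate 1. CXCL10 was 1 of the falls. CCL2, a chemokine for monocytes, had 6.90, 6.78 and 7.43 in LR3 against 10.88, 10.45 and 9.18 in LR7 (3.13, limma adjusted p = 0.0115), and VCAM1 and the receptor IL6R each rose by 1.38. SAA3, an acute phase protein with a strong signal (0.53), and CXCL16 (-0.03) did not pass. Of 27 interferon-stimulated genes 6 rose (22.2%) and none fell (median 0.33), with 3 rises without LR3 replicate 1 or LR7 replicate 2. They included IFI27 (2.63), IFI44 (1.85), ISG15 (1.71), IFI44L (1.07) and MX1 (0.92). ISG15 had 6.85, 8.26 and 8.49 in LR3 against 9.44, 9.28 and 10.02 in LR7. None of 15 complement genes passed in limma (median -0.50), and C3 changed by -0.77. Of 18 genes of antigen presentation 3 fell (16.7%) and none rose (median -0.42), with 1 fall without LR7 replicate 1 or LR7 replicate 2. All 3 were of class II, namely BOLA-DMB (-1.11), BOLA-DMA (-1.02) and BOLA-DRA (-0.95). BOLA-DRA had 12.02, 12.13 and 12.28 in LR3 against 11.21, 10.86 and 11.51 in LR7. The class I transcripts B2M (0.08) and BOLA (0.17) did not pass, and BOLA-DMA did not pass with the block.

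Markers of the uterine epithelium were strongly detected at both days. EPCAM had 13.18, 13.08 and 12.99 in LR3 against 12.80, 12.84 and 12.86 in LR7 (-0.25), KRT19 changed by -0.10, and none of the 13 expressed epithelial markers passed in limma (median -0.10). The log2 of the summed signal of the 15 on the array was 15.13 to 15.21 in LR3 and 14.96 to 15.1 in LR7, without overlap. Of 18 endothelial markers on the array and 10 of smooth muscle, 1 each was expressed. These were EMCN (-1.70, not passing) and SMTN, which rose by 2.36. All 8 expressed markers of ciliated cells were lower and none passed (median -0.48).

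Some markers of other cells moved with the day, and their part in the gene lists above was not tested. Of 16 stroma markers on the array 10 were expressed and 3 fell, LUM, FBN1 and FBLN1 (-1.21), with none rising. Their median of -0.42 was -0.84 without LR3 replicate 1 and -0.0125 without LR7 replicate 1, when none fell. They are members of the matrix list as well, and none of the 3 passed with the pool number as a block. Vimentin (VIM, 0.11) and COL3A1 did not pass. The log2 of the summed signal of the 16 ranged from 12.9 to 13.9 in LR3 and from 12.32 to 13.46 in LR7, which overlapped. Of 25 T and NK cell markers, 11 were expressed and CD2 fell (-0.78). The falls numbered 2 with the pool number as a block (CD2 and CD247), 5 without LR7 replicate 3 and 0 without any other pool. The median of the 11 was -0.68, 22 of the 25 were lower, and the summed signal was 11.46 to 11.88 in LR3 and 10.78 to 11.42 in LR7, without overlap. CXCL10 and the class II genes fell beside these. Of 12 expressed macrophage and dendritic cell markers, FCGR2B and CD68 (2.0) rose and none fell, with a median of -0.01, and C1QA (-0.50) did not pass. The summed signal of the 17 such markers on the array was 11.43 to 11.74 in LR3 and 11.92 to 12.12 in LR7. None of 5 B and plasma cell markers passed in limma, and JCHAIN ranged from 7.81 to 10.37 within LR3 alone. The summed signal of the 12 such markers on the array was 12.7 to 13.55 in LR3 and 12.54 to 13.05 in LR7, which overlapped.

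Of 16 neutrophil markers 4 were expressed and 3 rose. S100A8 had 6.96, 6.95 and 7.86 in LR3 against 9.95, 10.62 and 9.93 in LR7 (2.91, limma adjusted p = 0.00349). S100A12 had 7.91, 7.78 and 9.05 against 11.28, 11.91 and 11.16 (3.20, limma adjusted p = 0.00177), and S100A9 rose by 1.15. LR3 replicate 3 was the highest of its group in all 3 genes and below every LR7 pool. The granule genes MPO and ELANE were below the array median at both days, and LTF did not pass. The summed signal of the 16 was 13.87 to 14.03 in LR3 and 14.21 to 14.46 in LR7. LTF, also listed above as a secreted protein, had 13.80 to 13.97 in LR3 and 13.89 to 14.00 in LR7. It made up most of this sum but changed by only 0.06, so that the difference of the sum between the days lay mostly in the other markers. Of 7 expressed markers of basal and squamous epithelium 3 rose and 1 fell (median 0.68). KRT5 had 4.10, 4.67 and 7.11 in LR3 against 7.38, 8.21 and 8.20 in LR7 (2.64, limma adjusted p = 0.0295), ITGB4 and S100A2 (0.76) rose, and the laminin chain LAMB3 fell by 0.47 on the log2 scale. KRT14 and KRT4 were below the array median at both days, and the summed signal of the 16 markers on the array was 13.05 to 13.41 in LR3 and 13.65 to 13.73 in LR7. Of 2 expressed blood markers PF4 (1.92) and AHSP (0.25) did not pass, and the hemoglobin genes HBA and HBB were below the array median. The summed signal of the 11 blood markers on the array was 8.88 to 9.05 in LR3 and 9.24 to 9.48 in LR7, without overlap.

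**Figure D4:**
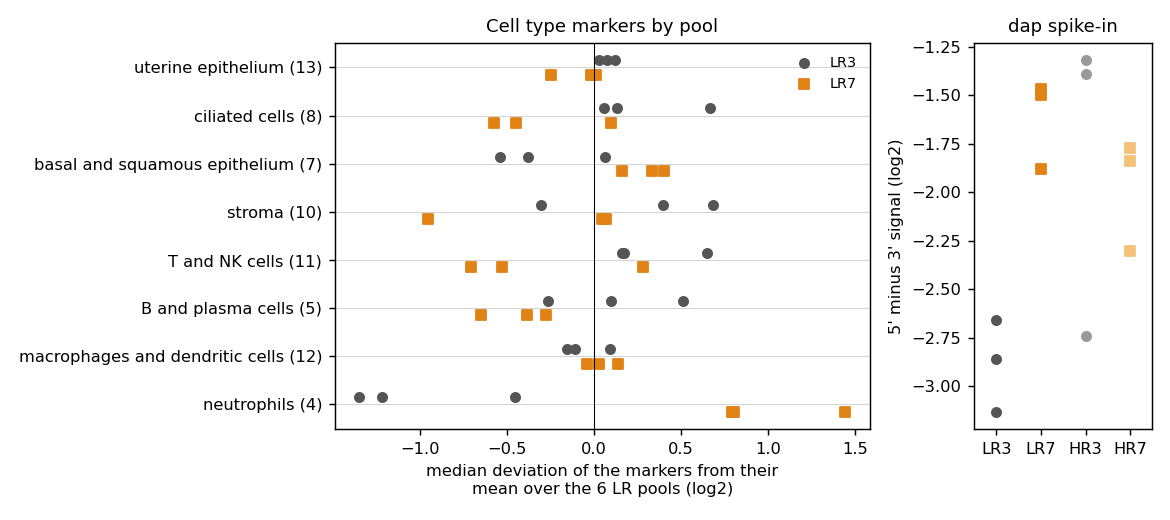
Left, median deviation of the expressed markers of 8 cell types from their mean over the 6 LR pools (log2, horizontal axis), 1 point per pool, with the number of markers in brackets; right, log2 difference of 5' and 3' signal of the dap spike-in, 1 point per array. The neutrophil and squamous markers lie higher in every LR7 pool, and those of epithelium and of B and plasma cells lower. The gap is narrow for B and plasma cells (lowest LR3 pool -0.263, highest LR7 pool -0.273) and for epithelium (0.033 and 0.015). The other 4 types shown overlap, and dap separates LR3 from LR7 but not HR3 from HR7.

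The study named pathway gene lists for the change from day 3 to day 7 in LR. They were chosen on these same arrays, so that their directions are not independent evidence. The study drew them from probe sets that changed in LR but not in HR, after filters on present calls and on variability. Its p-value limit for the day effect was 0.05 without adjustment, so that a gene not passing here can still have met that limit. With tests only of probe sets above the array median, 9 mitochondrial dysfunction genes rose and 3 T cell receptor signaling genes fell. Of 4 expressed prolactin signaling genes NR3C1 fell and STAT3 (-0.10), CREBBP (-0.16) and PIK3R4 (0.05) did not pass. Of 5 lysine degradation genes PLOD2 (-1.13) and NSD3 (-0.50) fell and ECH1 rose by 0.39, though its other probe set passed in the opposite direction, and none of the 3 passed with the pool number as a block. None of 7 T cell receptor signaling genes passed in limma (median -0.45), while 1 fell with the pool number as a block and 3 without LR7 replicate 3. CD247, which passed with the block, changed by -0.79, IKBKE by -0.85 and LCK by -0.68. All 12 expressed mitochondrial dysfunction genes were higher at day 7, among them SDHA (0.65), COX6A1 (0.60) and CYC1 (0.59), with a median of 0.50. None of them passed in limma, 1 did with the pool number as a block, 8 did with an intensity trend in the variance, 6 without LR3 replicate 2 and 4 without LR7 replicate 3, and with the dap covariate the median was 0.199. None of 5 expressed estrogen receptor signaling genes (median -0.03) and none of 8 of actin cytoskeleton signaling (median 0.27) passed. ESR2, PPARGC1A (1.38) and PIP4K2A (0.78) passed as higher, all with signals that did not meet the rule for expressed genes. Of 7 expressed genes that were also measured by qRT-PCR, HPGD, PIP and KRT5 rose, and PTGS2, DDX46 (-1.26), AP2S1 (0.07) and ATP1B3 (0.10) did not pass. The rises numbered 4 with the block, PTGS2 being added, and 1 without LR7 replicate 2. The reference genes RPS13 (-0.08) and GAPDH (0.18) did not pass.

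The day change in LR was compared with that in HR, which has no array in common with it. Both were tested in 1 fit with 1 estimate of the spread for each probe set, so that their calls are not independent. Over the 11,905 expressed probe sets the log2 changes of both correlated at r = 0.894, given as a description across probe sets, with a slope of 0.922 of HR on LR. Of the 2,066 expressed probe sets that passed in LR, 99.4% had the same sign in HR, and none passed there in the opposite direction. The test of the difference itself, the interaction of receptivity and day, passed for 1 of 24,016 probe sets (0.00416%), and 971 had an unadjusted p under 0.05. No named gene passed it in limma. The genes with the lowest p included KRT15, with a change of 0.68 in LR and 3.59 in HR (interaction adjusted p = 0.789), SLC5A1, with 1.51 and 4.28 (0.961), and the amino acid carrier SLC6A14, with 0.20 and 1.47 (0.943). FCGR2B had 3.48 and 5.18, and S100A12 had 3.20 and 5.10. Values were higher in LR for MX1, with 0.92 in LR and 0.22 in HR, DISP1, with 1.63 and 0.75, and LYPLA2, with 0.58 and -0.0033. None of these differences passed.

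**Figure D5:**
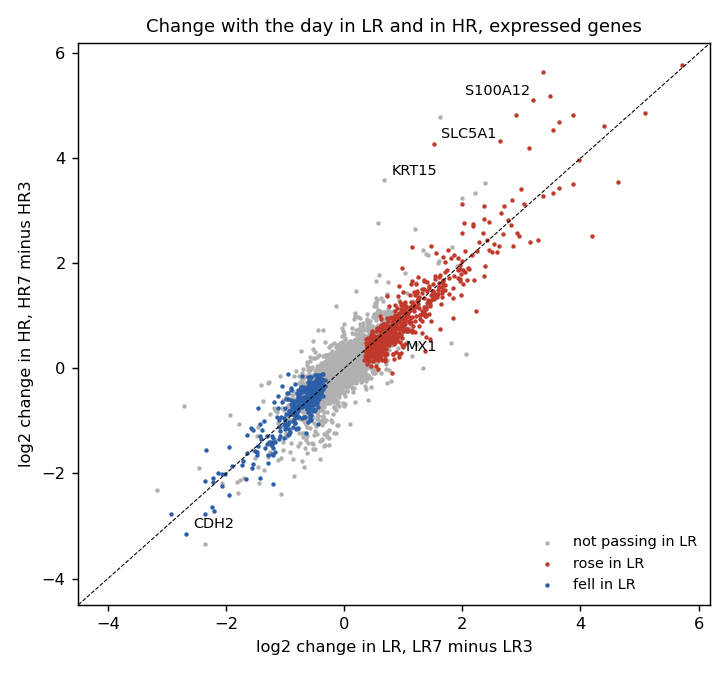
Log2 change from day 3 to day 7 in HR (vertical axis) against that in LR (horizontal axis) for the 6,239 expressed genes; red points rose and blue points fell in LR, grey points did not pass there, and the dashed line marks equal change. Points follow the line, with KRT15 and SLC5A1 above it and MX1 below.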

How the data were processed

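RNA of 12 pools was hybridized to Affymetrix Bovine arrays, 3 arrays for each of LR3, LR7, HR3 and HR7. Per the study's methods, the authors summarized probe signals with PLIER in Expression Console, and the deposited values are on a log2 scale. The submitters' processing notes also name GCOS 1.1.1. Values over the 12 arrays ranged from 0 to 14.07, and signals near the top of this range have little room to rise. The LR arrays had medians of 6.64 to 6.74 and 287 to 385 probe sets at 0 each. The number of arrays limits the precision.

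A linear model of 4 group means was fitted to the 24,016 non-control probe sets with limma 3.58.1 in R 4.3.3, with empirical Bayes moderation and Benjamini-Hochberg adjustment at 0.05. No filter was applied to the probe sets tested. Platform annotation, which can be old, gave 1 symbol for 13,292 probe sets (9,155 genes), several for 86 and none for 10,638, and 13,263 were found in the RefSeq gene table. A gene is represented by its probe set with the highest mean signal. Of 1,594 entries in 48 lists, 1,168 matched by symbol and 43 by synonym. Named were the 12 largest rises and falls without overlap of pools, up to 4 passing and 2 non-passing members of each list, the genes named by the study and up to 6 genes in each direction by the interaction. The groups, lists and naming rule were chosen with earlier results of these data known.

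Pool numbers are shared between days in the labels. Deviations of same-numbered LR3 and LR7 pools from their group means correlated at 0.171, 0.191 and 0.468 over expressed probe sets (0.062, 0.056 and 0.17 over all probe sets). Pools of unlike number correlated at -0.315 to 0.183 over expressed probe sets, and LR3 pool 1 correlated more with LR7 pool 2 (0.183) than with LR7 pool 1 (0.171). Pairing by number is thus not settled, and list counts with the pool number as a block are given where they differ. Alternatives were filters, normalization, an offset, the variance model, array weights, the arrays in the fit, a block, dap as a covariate and leaving out each LR pool. The fit was tested on simulated data with 50 changed probe sets per size among 24,016, where it recovered 12% of log2 changes of 0.5, 70% of those of 1 and 92% of those of 2, with 9 false calls.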

Additional observations from a re-analysis of the deposited data

Results flagged for a closer look

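Bt.8926.2.S1_at, a probe set without a symbol, was the 1 probe set whose day change differed between LR and HR by the interaction test. It was listed at 0 in all 3 LR3 pools and had log2 signals of 4.10, 3.97 and 4.66 in LR7. In HR it had 3.54, 3.57 and 3.15 at day 3 and 4.73, 4.10 and 4.35 at day 7. The difference between the day changes was 3.27 (standard error 0.299, limma adjusted p = 0.0174). All of these values lay below the array medians, and 0 is the floor of the deposited scale. The probe set did not pass, or was not tested, under the filters on signal, the intensity trend or the ordinary linear model. The same held for the block, the dap covariate and the fits without LR3 replicate 1 or LR3 replicate 2. In each of these fits the count of probe sets passing the interaction was 0.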

How the results depend on the processing

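The direction of the 24 largest changes was kept in every alternative fit. These genes were chosen without overlap of pools, so that leaving out 1 pool could not turn their sign. Of the 24, 13 passed with only the 6 LR arrays and 19 to 22 when 1 pool was left out. Probe sets passing in LR numbered 405 with only the 6 LR arrays (281 higher, 124 lower), 1,496 with the replicate block (884 and 612), 25 with the dap covariate (18 and 7) and 6,818 at an unadjusted p under 0.05 (3,351 and 3,467). Leaving out 1 pool gave 1,163 to 2,515 (690 to 1,320 higher, 473 to 1,195 lower). Of those passing, 54.49% were higher, against 60.67% after centring each array on its median, 69.38% with only the LR arrays, 72% with dap and 65.44% without LR3 replicate 2. The interaction passed for 1 probe set, for 2 with 16 added to the linear signal, for 0 under the above-median filter, both filters, the intensity trend, the ordinary linear model, the replicate block or dap, for 971 at an unadjusted p under 0.05, and for 0 to 2 leaving out 1 pool. Of the 116 named genes that passed, 80 passed with the replicate block and 3 with dap. Rises with the block, where not given above, were 5 for glycolysis and citric acid cycle, 6 for NRF2 and 5 for interferon-stimulated genes. They were 4 for inflammatory, 2 for protease and 2 for neutrophil genes. Falls with the block were 2 for steroid, 5 for immediate early and 0 for squamous genes.

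Among the list medians that moved were the following. Under the standard deviation filter, alone or with the above-median filter, they were -0.09 for steroid genes and 0.48 for estrogen receptor signaling (both with the sign turned), 1.92 for prostaglandin, 0.48 for secreted proteins, 0.41 for oxidative phosphorylation, 0.55 for the secretory pathway, -0.30 for splicing, 0.23 for the proteasome, 0.51 for lipid, 0.26 for adhesion, -0.31 for junction, 0.53 for NRF2, -0.85 for antigen presentation, -0.59 for TGF-beta, -0.32 for insulin-like growth factor, -0.37 for chromatin, 2.91 for neutrophil, -0.74 for T cell receptor and -0.72 for prolactin genes. This filter removes genes that vary little. With dap they were -0.0925 for the proteasome (sign turned), 0.61 for prostaglandin, 0.15 for oxidative phosphorylation, 0.15 for glycolysis and citric acid cycle, 0.22 for the secretory pathway, -0.75 for cell cycle, 0.0461 for lipid, 0.0425 for transporters, 0.23 for protease, 0.0024 for adhesion, -0.19 for complement, -0.15 for hedgehog, -0.41 for insulin-like growth factor, -0.26 for epithelium, -0.48 for macrophage, 0.2 for mitochondrial dysfunction, 0.12 for actin, -0.28 for lysine degradation, -0.0741 for prolactin and 1.09 for qRT-PCR genes. After quantile normalization epithelium was -0.27 and estrogen receptor signaling -0.103, and with the mean over probe sets hedgehog was -0.10, lysine degradation -0.355 and estrogen receptor signaling 0.31 (sign turned). Leaving out 1 pool gave 0.17 to 0.33 for lipid, -0.90 to -0.39 for matrix, -0.84 to -0.0125 for stroma, 0.09 to 0.31 for inflammation, 0.42 to 0.75 for protease, 0.0867 to 0.19 for NRF2, -0.59 to -0.24 for antigen presentation, -0.32 to -0.0167 for insulin-like growth factor, -0.18 to -0.0017 for chromatin, -1.22 to -0.12 for B and plasma cell, -0.0475 to 0.11 for macrophage and -0.0533 to 0.0167 for estrogen receptor signaling genes, the last 2 turning sign without LR3 replicate 3. The cause of these shifts was not tested. Signals below the array median limit the precision of the lowest genes.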

Other observations

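Many expressed probe sets carried no symbol and enter no gene list. Of 4,420 such probe sets 351 were higher and 487 lower at day 7 in LR. The widest changes were those of Bt.21319.1.A1_at (4.42) and Bt.5976.1.S1_at (4.34), which rose, and of Bt.22389.1.S1_at (-4.47) and Bt.29555.1.A1_at (-3.55), which fell. Both falls exceeded that of GJA1, the largest among named genes.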
